A study of Mus musculus with 36 samples.

Results

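C2C12 is an established mouse myoblast line, that is, precursor cells of skeletal muscle that divide in rich serum and fuse into myotubes when the serum is lowered. The genes described here had RNA that rose over dividing myoblasts by less than a set limit at 12 h of differentiation. The RNA of these genes was raised at 24 h and was still raised at 144 h. They were chosen by their levels in the authors' deposited normalized table (log2 values) from each probe's mean over 3 arrays minus its mean at 0 h. A member lay below 0.5 at 12 h, at or above 0.6 at 24 h and at or above 1 at 144 h, was at 144 h no more than 0.5 below the higher of 24 h and 48 h, and was higher at 24 h than at 0 h in all 3 same-numbered pairs. Of 46019 probes, 133 met the rule. Of these, 105 carried 1 gene symbol and stood for 101 genes, since Hsd11b1, Ttn, Chrnd and Tpm3 each had a pair of member probes. The other 28 had no symbol in the platform annotation used here and are called by probe number. The limit at 12 h holds for the deposited values only. On the background-corrected scale described further on, 80 of the 133 members had risen by at least 0.5 at 12 h.

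The series holds 36 arrays (Illumina Mouse WG-6 v1.1), 3 for each of 12 times. Cells at 0 h were undifferentiated myoblasts in DMEM with 20% fetal bovine serum, and cells of 1, 1.5, 2, 3, 6, 9, 12, 24, 48, 96 and 144 h had been moved to DMEM with 2% horse serum for that long, each time on plates of its own. All groups are of 1 cell line, the 3 replicates came from successive passages, and no group kept in rich serum for the same hours is among the samples, so time in culture and differentiation cannot be told apart. Nor, in RNA of whole cultures, can more cells that express a gene be told apart from more RNA per cell. Array medians of the raw intensity ran from 179 to 307. The myoblast and myotube markers (8 probes, among them Des, Myod1 and Ckm) were all above their arrays' median on all 3 arrays at 0 h and at 144 h. Their summed raw intensity was 20320 to 43650 over the 0 h arrays and 169900 to 185400 over the 144 h arrays. A sum is governed by its brightest probes, and of the 8 only 3 were higher at 96 h than at 9 h and 0 lower. Probes for adipocyte markers summed to 12070 to 20570 at 0 h and 4878 to 6607 at 144 h, and 0 of the 8 tested were higher at 96 h than at 9 h. For cartilage and bone it was 1 of 7 (Sp7), for smooth muscle 2 of 13 (Smtn, and Des, which striated muscle shares) and for neurons 0 of 7. These counts of change do not say that the markers were absent. Smooth muscle probes summed to 106200 to 118100 at 0 h and 124200 to 145400 at 144 h. Of these, 10 of 18 were above the array median on all 3 arrays at 0 h, and 10 at 144 h. For neurons it was 4 of 21 and for cartilage and bone 3 of 10, at either time. Of the immune and endothelial marker probes, 0 were above the array median on all 3 arrays at 0 h. At 144 h it was 0 of 9 immune and 2 of 9 endothelial probes.

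As background, myoblasts that lose serum leave the cell cycle, and the MyoD family of transcription factors, which bind the E-box letters CANNTG, turns on the genes of the contractile apparatus. Thick and thin filaments are then assembled into sarcomeres, with the Z-disc and M-band proteins that hold them, and the sarcoplasmic reticulum and surface membrane are joined into the calcium release machinery. Acetylcholine receptor subunits and the enzymes of glycogen breakdown and glycolysis rise in the same cells. The members on lists of such genes are described group by group.

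The bases upstream of member genes were read because the E-box is the site class of the factors that drive this programme. RefSeq (GRCm38.p6) gave the 250 bases before the annotated start for 76 of the 101 genes, 104 windows in all, since some genes have several starts. CANNTG, searched on both strands, was in 69.2% of the member windows and in 66.2% of all 32841 windows, so it was about as frequent in both. CAGCTG, which is one form of CANNTG and was counted within it, was in 24.0% of the member windows (24 genes) and 13.0% of all windows. CATTCC was in 9.62% and 12.6%, the MEF2 motif in 3.85% and 2.92%, and the CArG box in 3.85% and 1.47%. Member windows had a median GC content of 60% against 52.4% in all windows, windows of one gene overlap, and no test was made of these shares. The windows of 4 genes are shown because their levels are given array by array further on. These genes were picked after their values were seen, and capitals mark every CANNTG. The Chrng window is chr1:87205561-87205810 on the + strand, with 3 E-boxes of which 2 read CAGCTG. That of Cav3 is chr6:112459255-112459504 on the + strand, with 2 E-boxes. Pygm has chr19:6384158-6384407 on the + strand, with 2 E-boxes, both CAGCTG. For Csrp3 only the first window listed was taken, chr7:48848052-48848301 on the - strand, and it has 4 E-boxes and 0 copies of CAGCTG. A match is only the presence of these letters.
Chrng: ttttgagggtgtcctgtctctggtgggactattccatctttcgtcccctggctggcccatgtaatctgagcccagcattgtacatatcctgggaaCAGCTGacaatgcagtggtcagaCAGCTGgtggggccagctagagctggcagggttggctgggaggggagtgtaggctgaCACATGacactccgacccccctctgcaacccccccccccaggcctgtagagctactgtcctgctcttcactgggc
Cav3: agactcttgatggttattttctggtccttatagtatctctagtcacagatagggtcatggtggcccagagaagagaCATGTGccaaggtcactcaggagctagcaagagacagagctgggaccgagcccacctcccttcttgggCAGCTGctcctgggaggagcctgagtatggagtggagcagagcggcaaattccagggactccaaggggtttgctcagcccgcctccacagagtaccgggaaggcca
Pygm: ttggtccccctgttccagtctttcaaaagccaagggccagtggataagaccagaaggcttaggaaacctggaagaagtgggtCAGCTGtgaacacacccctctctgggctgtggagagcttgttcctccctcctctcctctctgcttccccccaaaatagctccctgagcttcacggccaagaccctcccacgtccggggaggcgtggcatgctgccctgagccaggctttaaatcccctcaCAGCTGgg
Csrp3: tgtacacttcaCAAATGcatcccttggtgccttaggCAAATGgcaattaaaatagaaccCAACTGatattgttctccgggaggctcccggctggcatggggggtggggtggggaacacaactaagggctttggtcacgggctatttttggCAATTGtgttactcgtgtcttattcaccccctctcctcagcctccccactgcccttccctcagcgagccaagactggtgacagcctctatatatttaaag

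On the deposited scale the rule itself sets the pattern, so the following values describe the members and were not tested. Differences from 0 h ran from -0.17 to 0.50 at 12 h (median 0.32), from 0.60 to 2.04 at 24 h (median 0.89), from 0.55 to 3.36 at 48 h (median 1.27) and from 1.00 to 5.83 at 144 h (median 1.58). Just inside the 24 h limit lay Pygm at 0.6003 and Gys1, glycogen synthase of muscle, at 0.6033. The nearest probes outside it, Htr2b and Crym, were both at 0.5899. The threshold thus cuts through a continuous range.

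All other levels here are on the log2 scale of the raw intensities after background correction and quantile normalization between arrays. On that scale the median member exceeded its 0 h mean by 0.02 after 1 h, 0.07 after 3 h, 0.26 after 6 h, 0.51 after 9 h and 0.58 after 12 h. The excess was then 1.50 after 24 h, 1.93 after 48 h, 2.21 after 96 h and 2.43 after 144 h. The 3 replicate medians at 24 h were 1.51, 1.35 and 1.50, and at 12 h they were 0.68, 0.43 and 0.65, so at both times replicate 2 was the lowest. Over the same arrays the median of all tested probes stayed between -0.01 and 0.01 of 0 h. The heat map of the members shows the step between 12 h and 24 h in every replicate and a wide spread in how far each probe went on after it.

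**Figure D1:**
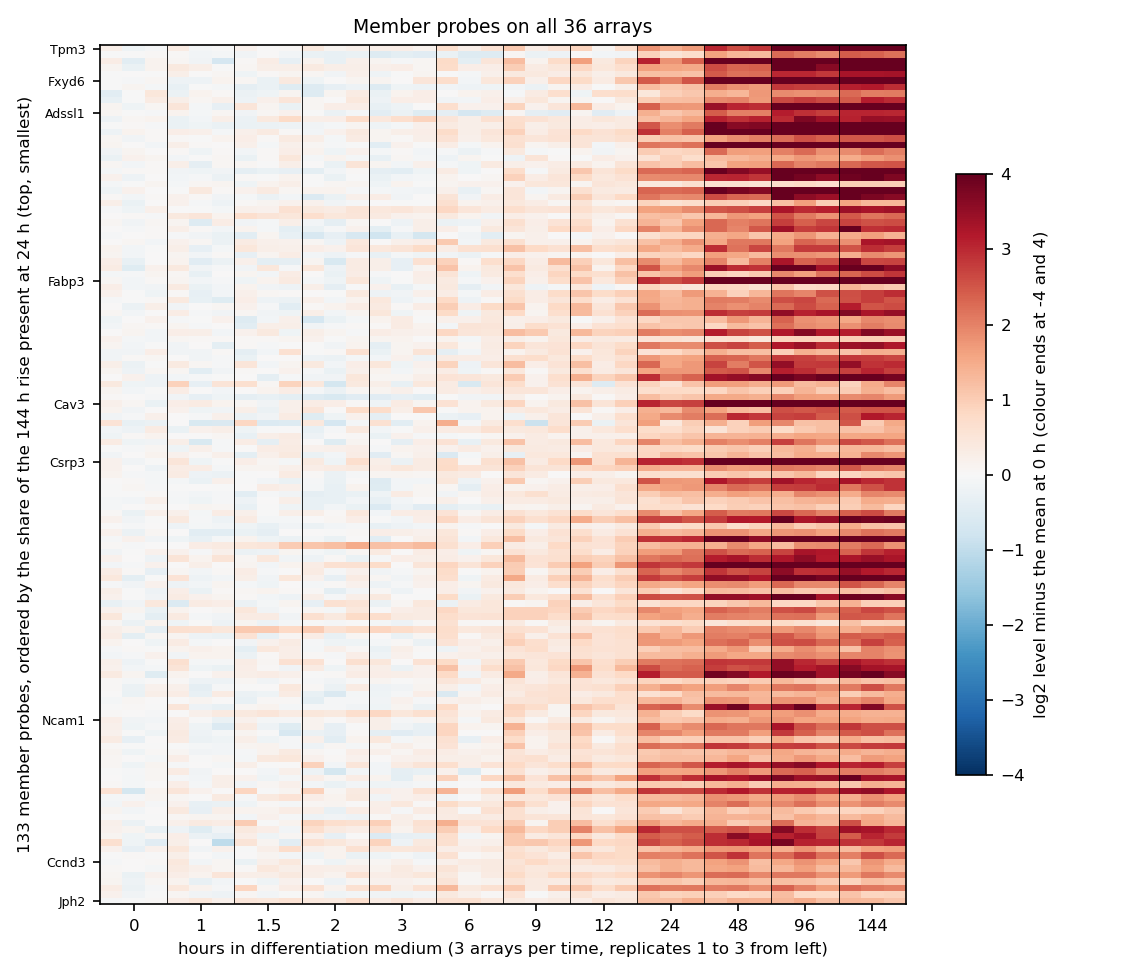
Each row is 1 of the 133 member probes and each column 1 of the 36 arrays, with time in hours along the horizontal axis. Colour gives the log2 level minus the probe's mean at 0 h, and rows are ordered by the share of the 144 h rise that was present at 24 h, from 28.1% at the top (Tpm3) to 102.6% at the bottom (Jph2).

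Most members were brighter than the array's median already in myoblasts, though some of them only at a low level. At 0 h, 113 of the 133 gave a raw intensity above the array's median on all 3 arrays, 11 on none, and from 24 h on all 133 were above it on all 3. Among the 11 were Cav3, Hspb7, Tas1r1, Abra, Pygm, Ablim3, Adamtsl2 and Aatk. The array median is no detection call, so these counts order the members by brightness and do not say which were absent. The choice of scale also bears on how flat 12 h was. On the background-corrected scale 80 members had risen by at least 0.5 at 12 h, on the deposited scale 0 by construction, and 40 lay between 0.4 and 0.5 there. Rises at 24 h were larger on the background-corrected scale by a median ratio of 1.54, which was 2.69 for the 20 members that were not above the array median on all 3 arrays at 0 h and 1.41 for the 113 that were. A median of 26.2% of the 144 h rise was already present at 12 h (range -6.1% to 51.3%).

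**Figure D2:**
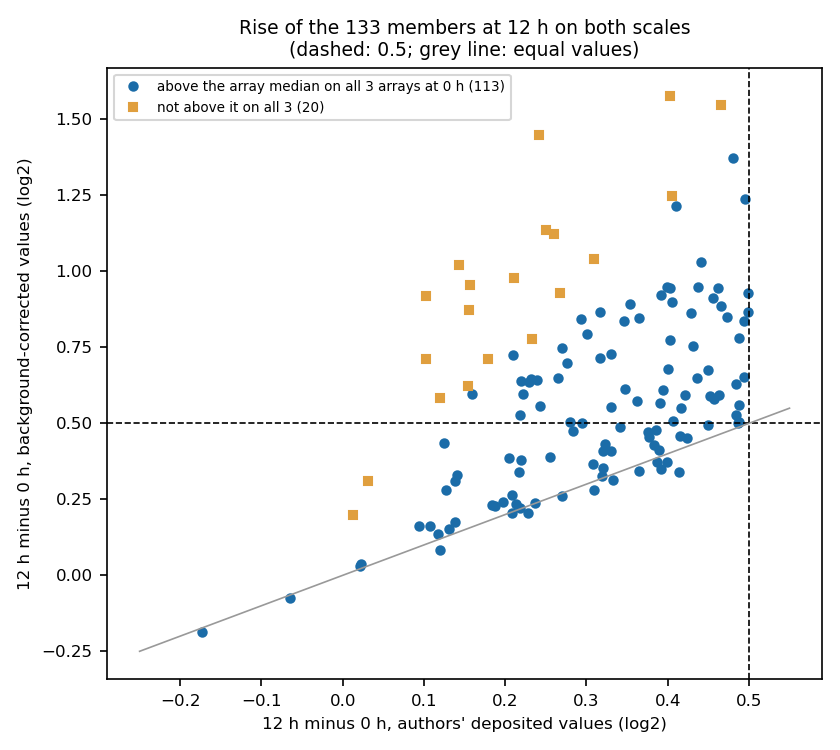
Each point is 1 of the 133 members, with its difference between 12 h and 0 h in the authors' deposited log2 values on the horizontal axis and in the background-corrected log2 values on the vertical axis. All members lie left of the dashed line at 0.5 because the rule put them there, and 80 lie on or above the dashed line at 0.5 on the other scale, among them 18 of the 20 dim members drawn as squares.

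Comparisons between arrays that had no part in the choice give the tests. The rule used 0, 12, 24, 48 and 144 h, so 96 h was compared with 9 h, and 9 h and 6 h with the mean of 1, 1.5, 2 and 3 h, in limma's moderated test over all 29812 probes past a filter on dim signal. All 133 members passed this filter, which they could do through the arrays from 24 h on. At 96 h, 131 of the 133 members were higher than at 9 h and 0 were lower (adjusted p below 0.05), where 7.85% of all tested probes were higher and 9.13% lower. Their median difference was 1.78 (quartiles 1.18 and 2.59, range 0.37 to 6.46), that of all tested probes was -0.01, and 108 members were at least 2-fold higher. All 133 were higher at 96 h in 3 of 3 same-numbered pairs. For this count and that of 2-fold differences, the share over all tested probes was not computed. For 132 every 96 h array was above every 9 h array, which held for 12.9% of all tested probes. The time of 96 h lies between 2 times at which the rule required high values. The time of 9 h lies next to 12 h, where it required values below 0.5 on the deposited scale. A high count and a clear positive difference were thus to be expected here, so the sizes are a description and no independent support. Ivns1abp, a kelch protein, differed by 0.57 ± 0.26 (SE, adjusted p = 0.145) and Dmpk, the kinase of myotonic dystrophy, by 0.37 ± 0.13 (SE, adjusted p = 0.0511). When the fit included a replicate block, both passed (adjusted p = 0.0191 and 0.0179), and it called all 133 members against 10.9% of all tested probes.

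**Figure D3:**
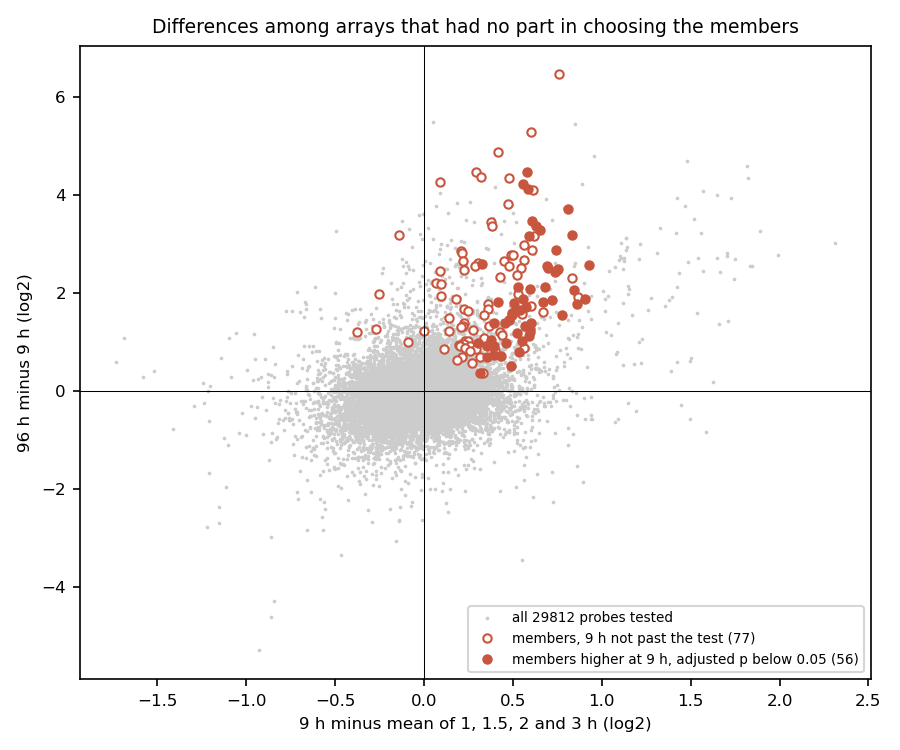
Each grey point is 1 of the 29812 tested probes and each circle a member, with the log2 difference between 9 h and the mean of 1, 1.5, 2 and 3 h on the horizontal axis and that between 96 h and 9 h on the vertical axis. All 133 members lie above 0 on the vertical axis, 128 lie right of 0 on the horizontal axis, and the filled circles are the 56 members that were higher at 9 h at an adjusted p below 0.05.

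Among sarcomere genes, 13 of the members (11 genes) were on a list of 71 genes of filaments, Z-disc, M-band and their chaperones. Csrp3, the muscle LIM protein of the Z-disc, measured 7.61, 7.31 and 7.43 in replicates 1, 2 and 3 of 0 h. The 24 h arrays gave 10.49, 10.44 and 10.35. At 9 h it was at 8.62, 7.77 and 8.23, and at 96 h at 12.60, 12.40 and 11.92. The replicates thus differed more at 9 h than at 24 h, and 96 h lay far above 9 h in each (difference 4.10 ± 0.25 SE, adjusted p = 9.29e-14). Hspb7, a small heat shock protein of striated muscle, was at 7.79, 7.09 and 7.38 at 9 h and at 11.48, 11.10 and 11.10 at 96 h. Its groups did not overlap (difference 3.81 ± 0.24 SE, adjusted p = 3.08e-13). The other members of this list were Ldb3, Myom1, Hspb2, Hspb3, Klhl31, Des, Pdlim7 and both member probes each of Ttn and Tpm3. Each member probe was higher at 96 h, from Pdlim7, a PDZ and LIM protein, at 0.92 ± 0.12 to Tpm3 at 4.36 ± 0.21 (SE). The other tested Pdlim7 probe, 105080538, was bright (mean 13.61 at 9 h), differed by -0.19 and did not pass (adjusted p = 0.458). Of the 73 tested probes on the list that were not members, 44 were higher and 2 lower at 96 h, and the whole list had a median of 1.45 over 86 tested probes. By the same kind of rule, 31 probes of the list were already raised at 12 h and 7 were not yet raised at 24 h.

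Tpm3, which encodes tropomyosins of both the thin filament and the general cytoskeleton, gave opposite readings from different probes. Probe 102340017 measured 8.98, 8.25 and 8.49 at 9 h and 13.47, 12.65 and 12.67 at 96 h (difference 4.36 ± 0.21 SE, adjusted p = 5.7e-16). Probe 100580408 went from 10.30, 9.65 and 9.78 to 13.84, 13.30 and 12.96 (difference 3.45 ± 0.19 SE, adjusted p = 1.68e-14). Both had most of their rise after 24 h, with 28.1% and 32.1% of the 144 h rise present by then. The other 3 Tpm3 probes differed by -0.29, -0.37 and -0.42 between 96 h and 9 h, and none passed the test (adjusted p = 0.231, 0.326 and 0.195). At 144 h these 3 averaged -0.64, -0.67 and -0.72 relative to 0 h, a description from arrays the rule used, and every one of their 9 values was below the 0 h mean. The annotation pairs the 2 member probes with other transcript records of the gene than the 3 others. A level of the gene as a whole cannot be read from any of them.

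**Figure D4:**
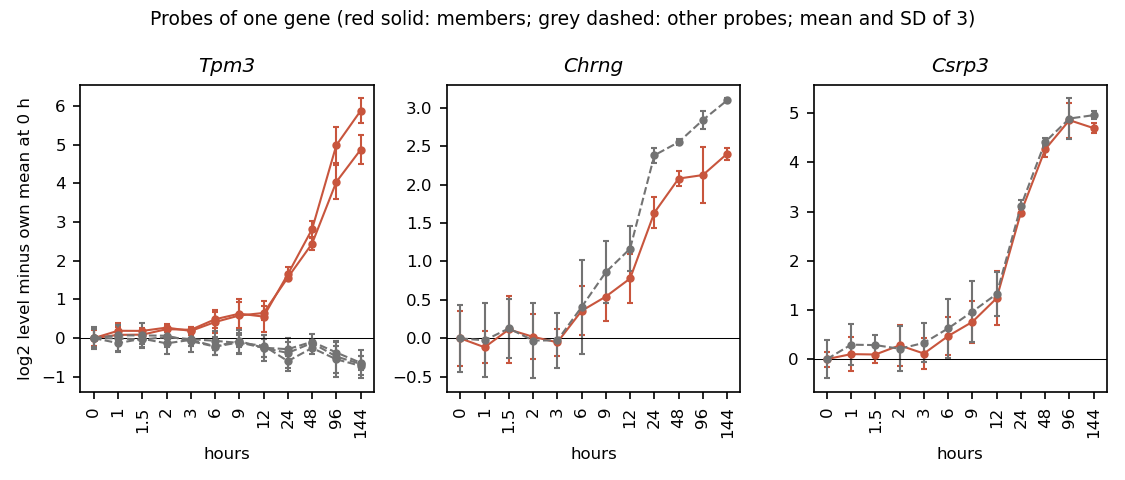
Mean and SD of 3 arrays at each time in hours, as log2 level minus the probe's own mean at 0 h, for every tested probe of Tpm3, Chrng and Csrp3. Red solid lines are member probes and grey dashed lines are other probes of the gene. The 2 Tpm3 member probes rise to 5.88 and 4.87 at 144 h while its 3 other probes end below 0, and the other probes of Chrng and Csrp3 rise with the member or above it.

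Members of the calcium and excitation list were Cav3, Cacnb1, Asph and Jph2, 4 of 59 tested probes. The list also holds Mymk, a gene of myoblast fusion, whose 1 probe is among its higher non-members. Cav3 is the caveolin of the muscle surface membrane. It was at 7.004, 6.884 and 6.561 at 0 h, not above the array median on any of the 3 arrays, and at 9.88, 9.49 and 9.55 at 24 h. From 7.69, 6.96 and 7.21 at 9 h it reached 11.69, 11.83 and 11.44 at 96 h (difference 4.37 ± 0.19 SE, adjusted p = 3.38e-17), and at 144 h it stood at 11.34, 11.57 and 11.38. Cacnb1, the beta subunit of the calcium channel that senses voltage in muscle, was higher by 2.61 ± 0.17 (SE, adjusted p = 4.04e-13). Asph, whose locus also encodes the sarcoplasmic reticulum protein junctin, was higher by 1.74 ± 0.22 at its member probe (SE, adjusted p = 4.84e-07). Of its 13 other tested probes 1 was higher and 2 were lower. Probe 1940039 differed by 1.33, probe 4760433 by -0.94, and probe 6370671 by -0.43 (adjusted p = 0.000194, 0.000874 and 0.0149). Jph2, a junctophilin that ties the sarcoplasmic reticulum to the surface membrane, stood at 11.40, 11.42 and 11.48 at 0 h and averaged 11.93 at 1.5 h and 11.99 at 6 h, so part of its rise preceded 9 h. It was at 11.80, 11.69 and 11.80 at 9 h and reached 12.59, 12.65 and 12.88 at 24 h. The 96 h arrays gave 12.78, 12.91 and 12.62 and the 144 h arrays 12.77, 12.73 and 12.54, so the 24 h arrays lay within the range of the later ones. Its difference between 96 h and 9 h was 1.00 ± 0.11 (SE, adjusted p = 1.65e-08). Among the 55 tested non-members of this list, 28 were higher and 3 lower at 96 h, and the list's median was 0.75. By the same kind of rule, 11 probes of this list were already raised at 12 h and 7 were not yet raised at 24 h.

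Neuromuscular genes among the members were Chrnd, by both of its member probes, Chrng and Ncam1. Chrnd and Chrng are the delta and gamma subunits of the acetylcholine receptor, the gamma subunit being that of the fetal form. Probe 2260670 of Chrnd was at 8.13, 7.84 and 8.26 at 0 h and 8.51, 8.56 and 8.69 at 9 h. The 24 h arrays gave 9.51, 9.83 and 9.67 and the 96 h arrays 10.18, 10.26 and 9.97. Its 3 replicates lay close together at 9 h and all above the 0 h arrays, and it rose by 1.55 ± 0.17 from 9 h to 96 h (SE, adjusted p = 4.02e-08). The second probe, 104760594, rose by 1.61 ± 0.28 (SE, adjusted p = 6.44e-05). Chrng probe 102640717 was at 8.15, 7.53 and 7.89 at 9 h and 9.79, 9.46 and 9.07 at 96 h (difference 1.58 ± 0.22 SE, adjusted p = 2.12e-06). A brighter Chrng probe, 5860273, was not a member because it already stood 1.24 above 0 h at 12 h on the deposited scale, where the member probe stood at 0.23. On the background-corrected scale the 12 h values were 1.17 ± 0.29 and 0.78 ± 0.31 (SD, n = 3). Ncam1, the neural cell adhesion molecule, rose by 1.38 ± 0.14 at its member probe (SE, adjusted p = 8.92e-09). Its 3 other tested probes differed by 0.46, -0.25 and -0.37 (adjusted p = 0.0155, 0.449 and 0.128), so only the first of them was higher. Of 26 tested non-members of the list 12 were higher and 0 lower, and the list's median was 0.43. Probes of the list already raised at 12 h were 3, and those not yet raised at 24 h were 0.

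Energy metabolism gave 6 members, namely Fabp3, Adssl1, Pygm, Pfkm, Gys1 and Eno3. Fabp3, the fatty acid binding protein of heart and muscle, was at 8.77, 8.61 and 8.75 at 0 h and 9.61, 8.91 and 9.41 at 9 h. The 24 h arrays gave 11.69, 11.29 and 11.50 and the 96 h arrays 13.70, 13.47 and 13.42. The 4 times did not overlap, and the difference between 96 h and 9 h was 4.22 ± 0.19 (SE, adjusted p = 6.28e-17). Pfkm, the muscle phosphofructokinase of glycolysis, was bright from the start, at 13.18, 13.18 and 13.23 at 0 h. It was at 13.29, 12.97 and 12.98 at 9 h and 15.46, 15.26 and 15.10 at 96 h (difference 2.19 ± 0.11 SE, adjusted p = 5.7e-16), so 9 h overlapped 0 h and 96 h did not overlap 9 h. Adssl1, the muscle adenylosuccinate synthase, also overlapped at the first 2 of these times, with 11.09, 10.99 and 10.95 at 0 h and 11.08, 10.65 and 10.57 at 9 h, and reached 14.17, 13.92 and 13.77 by 96 h (difference 3.19 ± 0.15 SE, adjusted p = 1.3e-16). Pygm, the muscle glycogen phosphorylase, was dim at 0 h and spread widely there (7.02, 6.20 and 6.85). It measured 7.83, 7.03 and 7.33 at 9 h and 10.90, 10.74 and 10.04 at 96 h (difference 3.16 ± 0.29 SE, adjusted p = 1.14e-09). Gys1 and Eno3, the muscle enolase, were higher by 1.45 ± 0.15 and 1.30 ± 0.11 (SE, adjusted p = 1.31e-08 and 1.82e-10). In the 49 tested non-members of the list 23 were higher and 2 lower, and the list's median was 0.62. Probes of the list already raised at 12 h were 5, and those not yet raised at 24 h were 7.

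Of the remaining lists, adhesion and fusion held 1 member, Dtna, and the cell cycle list held 1, Ccnd3. Dtna, alpha-dystrobrevin of the dystrophin complex, had 96.9% of its 144 h rise at 24 h, and was at 9.50, 9.17 and 9.51 at 9 h and 10.83, 10.82 and 10.52 at 96 h (difference 1.33 ± 0.15 SE, adjusted p = 3.56e-08). Of its 5 other tested probes 2 were higher and 0 lower. Ccnd3, cyclin D3, which is known to stay high in differentiating myoblasts, was at 9.84, 9.91 and 9.95 at 0 h. The 24 h arrays gave 11.18, 11.31 and 11.18 and the 144 h arrays 10.98, 11.68 and 11.39. Its replicates were closer at 24 h than at 144 h, where replicate 1 was lowest, and it was higher at 96 h than at 9 h by 1.02 ± 0.17 (SE, adjusted p = 4.25e-05). The other tested Ccnd3 probe, 730500, differed by 1.33 and did not pass (adjusted p = 0.161). Of the 28 tested non-members of the cell cycle list 2 were higher and 12 lower, and the others passed neither way, against 9.13% lower over all tested probes. No member was on the lists of myogenic transcription (42 tested probes, 12 higher and 5 lower), extracellular matrix (46, 9 higher and 9 lower) or lysosome and protein breakdown (25, 6 higher and 2 lower). Probes already raised at 12 h and not yet raised at 24 h were 6 and 3 for adhesion and fusion, and 2 and 1 for the cell cycle. They were 4 and 3 for myogenic transcription, 0 and 2 for extracellular matrix, and 1 and 1 for lysosome and protein breakdown. In all, 29 members were on one of the 9 lists and 104 on none.

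**Figure D5:**
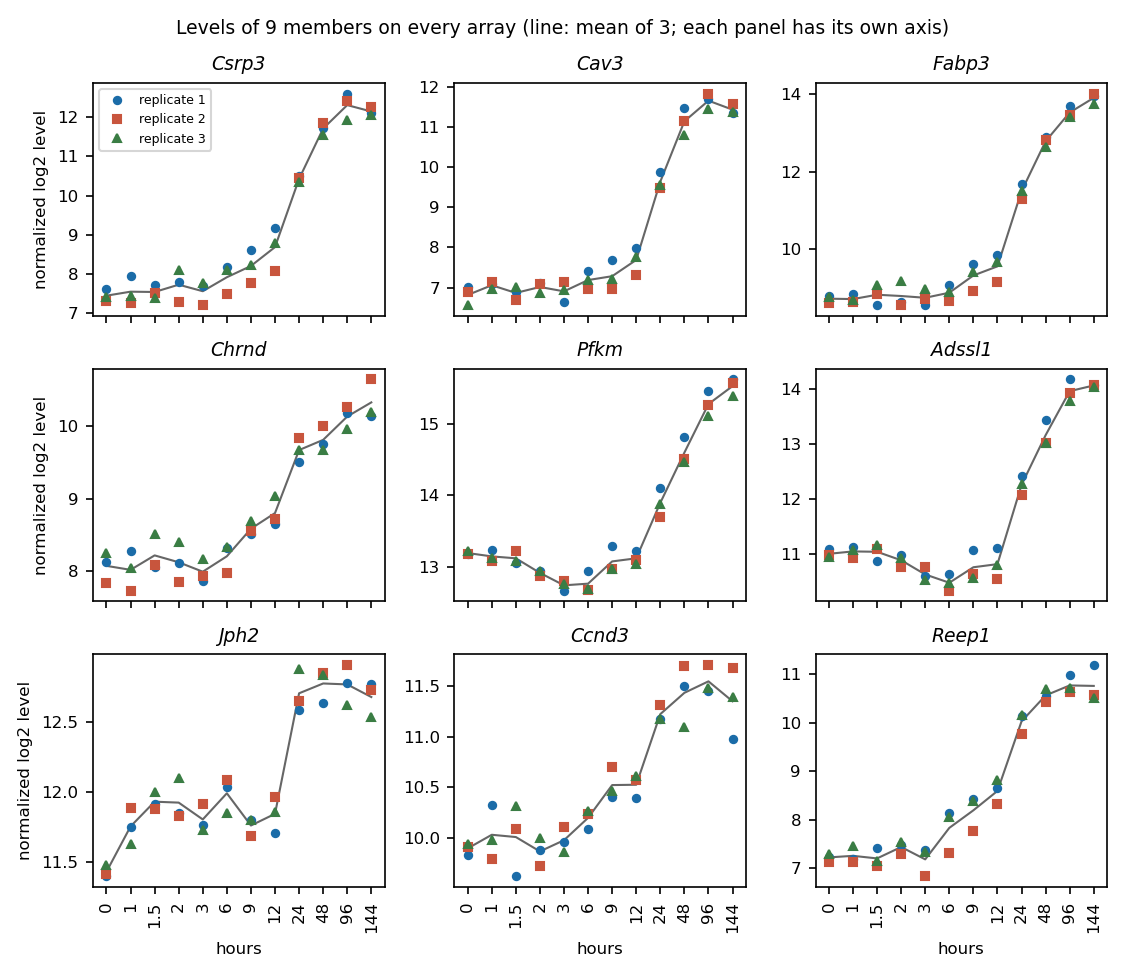
Normalized log2 level on every array for 9 members, each panel with its own vertical axis, time in hours along the horizontal axis, 1 symbol per replicate and a line through the mean of 3. Csrp3, Cav3 and Fabp3 climb on from 24 h to 96 h, Pfkm and Adssl1 have their lowest means at 3 h and 6 h, Jph2 is level after 24 h, and Reep1 is already above its early level at 9 h.

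Some of the largest differences between 96 h and 9 h belonged to genes and probes on no list. Probe 5290021, which has no symbol here, was at 8.07, 6.97 and 7.58 at 9 h and 14.37, 13.88 and 13.76 at 96 h, a difference of 6.46 ± 0.33 (SE, adjusted p = 2.52e-15). Fxyd6, of the family that regulates the sodium pump, was at 8.14, 7.42 and 8.03 and then at 12.84, 13.17 and 13.44 (difference 5.28 ± 0.22 SE, adjusted p = 2.79e-17). The SD over the 3 arrays was larger at 9 h than at 96 h for both, 0.55 against 0.32 for the first and 0.39 against 0.30 for Fxyd6. Probes 2940092, 101340520 and 105130131, also with no symbol here, were higher by 4.88 ± 0.19, 4.47 ± 0.17 and 4.47 ± 0.15 (SE). Pstpip1, an adaptor of the actin cytoskeleton, was at 7.86, 7.26 and 7.49 at 9 h and 11.80, 11.87 and 11.73 at 96 h (difference 4.26 ± 0.15 SE, adjusted p = 6.95e-19). Ankrd23, a muscle ankyrin repeat protein that binds titin, was at 8.26, 7.52 and 7.92 and then at 12.18, 11.99 and 11.93 (difference 4.13 ± 0.16 SE, adjusted p = 2.18e-18). For each of these genes and probes the 96 h arrays lay above all 9 h arrays. Probes 5290021 and 101340520 were above the array median on only 2 and 1 of the 3 arrays at 9 h, and Cav3, Hspb7 and Pygm were likewise not above it on all 3. Their differences start from a dim level, and with no background correction the first pair differed by 5.90 and 3.75.

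How much of the final rise was reached at 24 h differed between members, again as a description of arrays the rule used. The share of the 144 h rise present at 24 h had a median of 64.1% and quartiles of 52.4% and 70.8%. It was at least 80% for 17 members. Named after their values were seen, and each by a member probe, these include Hip1 at 102.0% and Ttn probe 2320161 at 98.8%. Cdc34, a ubiquitin-conjugating enzyme, was at 97.9%, Pdlim7 at 93.1% and Ccnd3 at 91.2%. The other Ttn member probe, 103780025, was not among them. It stood 1.89, 1.27 and 1.61 above its 0 h mean at 24 h and 3.71, 2.68 and 2.71 above it at 144 h. Only Tpm3 probe 102340017 was under 30%. By mean level 124 members were higher at 48 h than at 24 h, 130 at 96 h than at 24 h, and 89 at 144 h than at 96 h. Most members thus kept climbing after 24 h. Between 96 h and 144 h the median step of a member was 0.07. Medians over the members, taken separately at 96 h and 144 h, were 2.30 and 2.43 above 0 h in replicate 1. They were 2.31 and 2.53 in replicate 2, and 2.10 and 2.40 in replicate 3. The difference between such medians is not the step of any member, and the lower quartile of the members' means went from 1.61 to 1.56.

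Before the step, 56 members were higher at 9 h than at 1 to 3 h and 0 were lower, that is 42.1% of the members where 1.92% of all tested probes were higher and 1.36% lower. The median difference was 0.45 (quartiles 0.26 and 0.59, range -0.38 to 0.93) against a median near 0 over all tested probes. Of the 133 members, 128 were above 0, and 112 were higher in 3 of 3 replicates. Neither count was set against its share over all tested probes, which was not computed. For 34 members all 9 h arrays were above all 12 arrays of 1 to 3 h, which held for 1.52% of all tested probes. Replicates differed in size. Relative to the 0 h mean the median member at 9 h stood at 0.64, 0.32 and 0.47 in replicates 1, 2 and 3. A replicate block in the fit gave 87 called members (background 3.92%), and a chip block also 87 (background 3.51%). Without replicate 3 the count was 10, without replicate 2 it was 22, and without replicate 1 it was 24. Leaving out only the 9 h array of replicate 1 gave 14 and only that of replicate 3 gave 30, and the authors' table gave 25. In all these fits 0 members were lower. Of the 56, 47 were above the array median on all 3 arrays at 0 h, and Aatk was on 0 of them. The array of 9 h lay in every replicate on one chip with those of 12 h and 24 h, which the rule used, so a chip effect would enter both the choice and this comparison, and beyond the chip block its part in the result was not tested.

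Reep1, a protein that shapes the endoplasmic reticulum, had the largest difference at 9 h. It was at 8.42, 7.77 and 8.39 at 9 h, above every array of 1 to 3 h (difference 0.93 ± 0.16 SE, adjusted p = 0.000684). Sort1, the sorting receptor sortilin, was at 9.04, 8.08 and 8.25 at 9 h (difference 0.91 ± 0.21 SE, adjusted p = 0.0105). Probe 103520717, with no symbol here, differed by 0.86 ± 0.23 (SE, adjusted p = 0.0264) and Aatk, a membrane-bound kinase, by 0.84 ± 0.18 (SE, adjusted p = 0.0042). Ankrd23 and Fabp3 were also higher at 9 h, by 0.58 ± 0.12 and 0.55 ± 0.15 (SE, adjusted p = 0.00484 and 0.0294), and so were Ccnd3 and Chrnd probe 2260670, by 0.55 ± 0.14 and 0.50 ± 0.14 (SE, adjusted p = 0.016 and 0.0342). Cav3, at 0.32 ± 0.15, did not pass (adjusted p = 0.357), nor did Csrp3 at 0.61 ± 0.20 (adjusted p = 0.0884), but Csrp3 did with the replicate block (adjusted p = 0.0119). Adssl1 at -0.14 ± 0.11, Jph2 at -0.09 ± 0.08, Pfkm at 0.09 ± 0.08 and Pstpip1 at 0.09 ± 0.12 (SE) had adjusted p of 0.741, 0.792, 0.781 and 0.892. With the replicate block, probe 5290021, Fxyd6, Tpm3 probe 102340017 and Hspb7 passed too (adjusted p = 0.00529, 0.00352, 0.00428 and 0.0418), while Cav3 did not (adjusted p = 0.182).

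At 6 h only 4 members were higher than at 1 to 3 h in limma's test and 0 were lower, against 0.49% of all tested probes higher and 0.745% lower, while 44 members had an unadjusted p below 0.05, of which 41 were higher, as had 10.9% of all tested probes, with 4.88% higher. The 4 were Usp20, a deubiquitinase, at 0.34 ± 0.07, probe 106620008, with no symbol here, at 0.36 ± 0.08, Fam171a2 at 0.39 ± 0.09 and Rassf7 at 0.53 ± 0.13 (SE, adjusted p = 0.0102, 0.0152, 0.0239 and 0.0402). The median member was at 0.22. A replicate block in the fit gave 24 higher and 1 lower (background 2.16% higher), and a chip block 32 higher and 1 lower (background 2.18% higher). Without the 6 h array of replicate 1 the count was 0, as it was without replicate 2 or without replicate 3, and without replicate 1 it was 1, a member that was lower.

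Probes on either side of the timing rule were read at 9 h in the same fit. Of the 178 probes already at or above 0.5 at 12 h and still raised at 144 h, 127 (71.3%) were higher at 9 h than at 1 to 3 h, with a median of 0.83. Of the 217 probes raised at 144 h that were below 0.6 at 24 h, 7 were higher and 3 lower, with a median of 0.13. The members lay between them with 56 of 133 and 0.45. The 3 groups were cut from values at 12 h and 24 h, the next times after 9 h and on the same chips as the 9 h arrays. Their order at 9 h was thus to be expected from the cut, and the difference between them was not tested. At 96 h against 9 h the medians were 1.43, 1.46 and 1.78 for the earlier, the later and the member probes, and 155, 201 and 131 of them were higher.

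The step from 12 h to 24 h was also read in arrays that did not choose the probes. The rule was applied to 2 replicates and the step measured in the third, in the deposited values. Held-out medians were 0.57 in replicate 1 (150 probes chosen, 149 above 0), 0.63 in replicate 2 (126 chosen, 121 above 0) and 0.57 in replicate 3 (140 chosen, 139 above 0), with a mean of 0.59 ± 0.03 (SD, n = 3). Over all probes the medians were near 0 and 50%, 50.3% and 50.7% were above 0. The 3 chosen sets hold 121, 106 and 121 of the members, so they overlap. No test was made, since in each replicate 12 h and 24 h lie on one chip.

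Other probes of the member genes are a further reading. The 101 genes had 124 other probes (57 genes), of which 107 passed the filter, and 46 of these (43.0%) were higher and 2 (1.87%) lower at 96 h than at 9 h, where 7.85% and 9.13% of all tested probes were. Both of the lower ones are probes of Asph. The other probes belong to genes chosen for a member's rise and are not independent of it. For 9 genes, namely Abhd1, Chrng, Csrp3, Dtna, Inppl1, Klhl31, Prkag3, Ptges3l and Ttn, another probe was already at or above 0.5 at 12 h on the deposited scale and belongs to the earlier group. Csrp3 probe 450180 stood at 0.75 at 12 h where the member probe stood at 0.50 (0.4952, just under the limit), and both rose alike later, by 3.92 and 4.10 between 9 h and 96 h. On the background-corrected scale the Csrp3 probes stood at 1.32 and 1.24 at 12 h and at 3.11 and 2.98 at 24 h. Other probes of Inppl1 and Ptges3l also lay just over the limit, both at 0.51.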

How the data were processed

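Total RNA of 36 C2C12 cultures was labelled with biotin and hybridised to Illumina arrays, per the labels' protocols. The raw table the authors deposited holds linear probe intensity values, with a lowest value of 91.5, and their deposited normalized table holds log2 values from 8.33 to 16.2, by a method not given in the sources used here. The number of arrays limits the precision. The array code in each label tied columns to samples. Numeric probes were paired with the platform's identifiers by equality of all 36 normalized values, which paired 44505 of 44505, and named from the platform annotation (28471 probes with 1 symbol, 10 with several, 17538 with none).

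The rule was applied to the deposited log2 values. For all tests the raw table went through limma's normexp background correction (offset 50), was taken to log2 and quantile-normalized. Probes with a raw intensity above their array's median on at least 3 arrays were kept, 29812, and 16207 were left out. A mean per time was fitted to all 36 arrays in limma (lmFit, then eBayes with a trend on intensity), with two-sided p-values adjusted by the Benjamini-Hochberg method over all 29812 probes and a threshold of 0.05. R 4.3.3, limma 3.58.1, Python 3.11.15 and pandas 2.3.3 were used, and the fit was tested on simulated data.

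Named genes were, among members, up to 4 per gene list by the difference between 96 h and 9 h, the 12 with the largest such difference, up to 4 in each direction at 9 h, and the 2 nearest either side of the 24 h limit. Others were named after their values were seen. The members, gene lists and tests were chosen with earlier results of these data known.

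Replicate numbers come from the labels. Same-numbered deviations from the time means correlated at 0.46, 0.44 and 0.29 in the comparison of 96 h and 9 h, at 0.71, 0.45 and 0.30 in that of 9 h and 1 to 3 h, and at 0.66, 0.65 and 0.44 in that of 6 h, all above 0.1, so the numbers were taken to pair the arrays, though some pairs also share one of the 6 chips. The p-values of the main fit measure the spread between arrays of the same time, which came from successive passages of one line. That fit had no term for the pairing, so arrays of one passage at different times counted as independent. Alternatives were the authors' table, no background correction, median scaling, other filters on dim probes, replicate or chip as a block, only the times compared, and leaving out each replicate or array.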

Additional observations from a re-analysis of the deposited data

How the results depend on the processing

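Between 96 h and 9 h, the number of members higher was 131 and stayed between 124 and 133 under every alternative run, with 0 lower. It was 133 with the replicate block and with the chip block, 131 in the authors' table and 125 with median scaling. Leaving out a replicate or an array gave 124 to 130. For 9 h against 1 to 3 h the count of 56 became 25 in the authors' table, 33 when only the times compared were fitted, and 87 with the replicate block and with the chip block. Leaving out a replicate or an array gave 10 to 50, with fewer samples in each. It was 43 to 69 with median scaling, no background correction and other filters. For 6 h against 1 to 3 h the count of 4 became 7 with median scaling, 12 with the stricter filter (of which 1 was lower), 25 with the replicate block, 33 with the chip block and 1 when only the times compared were fitted. Leaving out a replicate or an array gave 0 to 3. Apart from fewer samples or probes tested, the cause was not tested.

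Applied to the background-corrected and quantile-normalized values, the rule gave 222 members, of which 48 are among the 133. Without background correction it gave 180, with 67 shared, and without 1 replicate 126 to 150, with 106 to 121 shared. The held-out step from 12 h to 24 h was 0.87 ± 0.07 on the background-corrected scale (SD, n = 3). For the named members, all 510 refits of 96 h against 9 h kept direction and side of the threshold. At 9 h 339 refits did, 28 gained and 49 lost the call, and 4 turned direction, none of them called. These were Pfkm at -0.015 without replicate 1 and -0.011 without only its 9 h array, in a range up to 0.157 over the replicates left out, and Pstpip1 at -0.085 and -0.072, in a range up to 0.287. Scalings moved the median of all tested probes between 96 h and 9 h by at most 0.04. Members dim at 0 h have differences that depend on the background correction, and no detection p-values were used.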
